A study of Mus musculus with 10 samples.

Results

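The collagen genes measured in the epididymal fat of obese mice are described here. They were found by symbol: every gene was taken whose annotated symbol reads Col, a number, a and a number, from probe sets (groups of array probes for 1 transcript) paired with exactly 1 symbol. This gave 42 collagen genes, read by 68 probe sets, of 17097 genes in all. For the 21 genes with more than 1 probe set, the brightest on average over the 10 arrays was used. The 42 genes comprise 11 fibrillar collagens, 6 chains of the basement membrane collagen type IV, 5 chains of type VI and 20 others.

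The mice were male, of C57/Bl6 background, and the tissue was their epididymal white adipose tissue, a visceral fat depot attached to the epididymis. They were 8 to 12 weeks old at the start, and every group ate a high fat diet with 45 energy% of fat for 16 weeks, so the set has no lean control. The groups were 4 wild-type mice (WT), 3 ASC-/- mice, which lack the inflammasome adaptor encoded by Pycard, and 3 Casp1-/- mice, which lack caspase-1, the protease that the inflammasome activates. Each mouse gave 1 array, so that p-values measure the spread between these mice, and both null genotypes are whole-body deletions as far as the labels say.

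Collagens are proteins of 3 polypeptide chains wound into a triple helix. Fibrillar collagens form the rope-like fibres of the interstitial matrix, type IV forms the sheet of the basement membrane that surrounds each adipocyte and lines blood vessels, and type VI forms beaded microfilaments that link cells to the fibres. In fat, progenitor cells and fibroblasts are a main source of the fibrillar chains, while adipocytes, endothelium and mural cells also make type IV and type VI chains, and collagen builds up around fat cells in obesity.

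The deposited values are log2 signals, and a difference of 1 is a doubling of signal. The targeted genes went with the labels: Pycard lay between 3.20 and 3.71 on the ASC-/- arrays and between 8.39 and 10.57 on the others, and Casp1 lay between 4.69 and 4.98 on the Casp1-/- arrays and between 8.71 and 9.99 on the others. The highest value of 23 control probe sets made to bind no mouse RNA was 5.005, which is used as the background line. Adipocyte markers were high on all arrays, with array means from 10.86 to 11.61. The controls for polyadenylated RNA, which monitor labelling, split the arrays. They averaged 7.51 to 8.07 on the 3 Casp1-/- arrays and 7.80 on WT replicate 1, and 5.76 to 6.504 on the other 6 arrays. Smooth muscle markers also averaged 10.42 on WT replicate 1 and 9.38 on ASC-/- replicate 1, against 7.25 to 8.23 on the other 8 arrays. Their part in the results below was not tested beyond the fits given beside them.

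Of the 42 collagen genes, 19 had a mean over all arrays above the background line: 7 fibrillar genes, 4 of type IV, 3 of type VI and 5 of the others. The other 23 genes include chains known from cartilage (Col2a1, Col9a1, Col9a2, Col9a3, Col10a1, Col11a1 and Col11a2), Col7a1 of the skin's anchoring fibrils and Col17a1 of hemidesmosomes. Values under the line cannot be separated from background by these arrays, and differences of the 23 genes are given only as differences of signal. A gene whose mean over all arrays is under the line can still lie above it in a group. The Casp1-/- means of Col23a1 (5.75) and Col8a2 (5.08) did. Cartilage markers were near background as well, with array means from 3.63 to 3.92.

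In ASC-/- mice no collagen gene was called different from WT. The limma test, with Benjamini-Hochberg adjustment over all 17097 genes and a threshold of 0.05 on the adjusted p, passed 0 of the 42, where 0.0351% of all genes passed. None had an unadjusted p under 0.05 either, against 2% of all genes, and for none did the 3 ASC-/- arrays lie entirely above or below the 4 WT arrays, which held for 3.19% of all genes. Fitted differences ran from -0.35 for Col6a5 to 0.37 for Col1a1, with 27 genes above 0 and 15 below, and their median was 0.04 against 0.01 for all genes. The lowest unadjusted p was 0.0708, for Col6a1, the α1 chain of type VI, whose difference was 0.29 with a 95% interval from -0.03 to 0.60.

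In Casp1-/- mice 3 of the 42 collagen genes (7.14%) passed the threshold against WT, close to the 8.17% of all genes that passed. Col1a1 was lower, where 3.86% of all genes were, and Col4a3 and Col4a4 were higher, where 4.31% of all genes were. An unadjusted p under 0.05 was found for 16 (38.1%), against 27.6% of all genes. For 10 collagen genes (23.8%) the 3 Casp1-/- arrays lay entirely on one side of the WT arrays, against 24.7% of all genes. Of these, 6 lay above (all genes: 15.1%) and 4 below (all genes: 9.6%). By the adjusted p and by overlap, the share of collagens was thus near that of all genes. Their median difference was 0.07, against 0.04 for all genes.

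**Figure D1:**
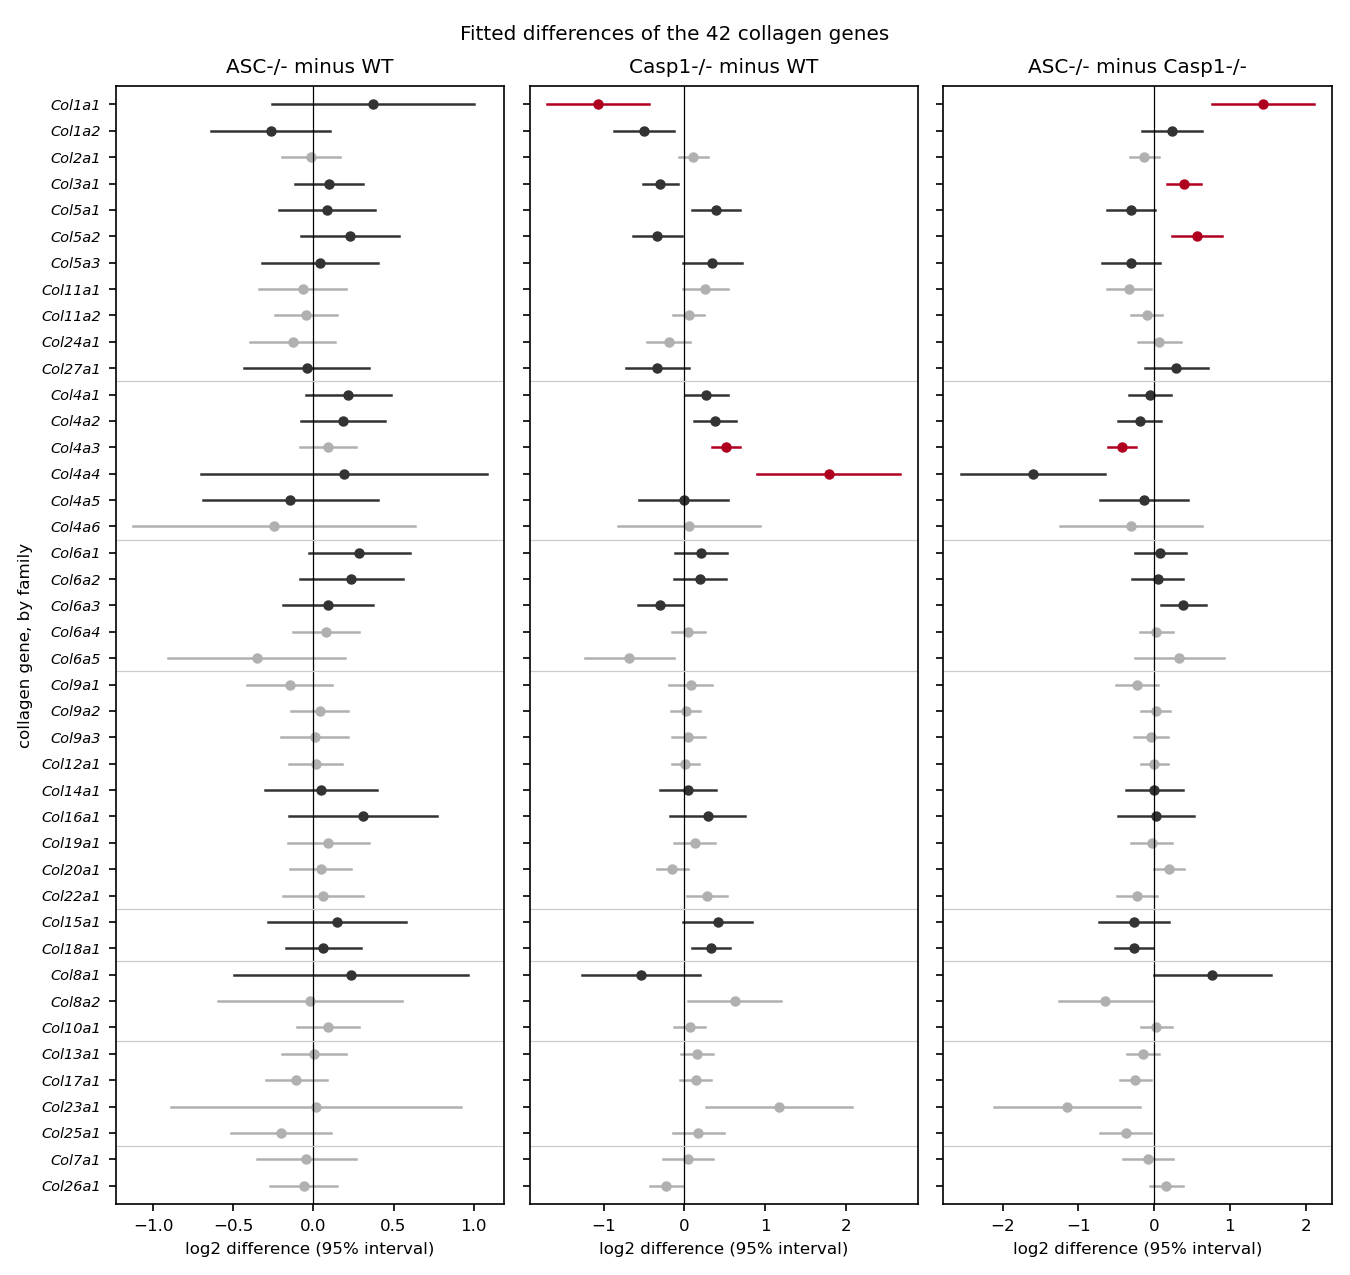
Fitted log2 differences of the 42 collagen genes with 95% intervals, for ASC-/- minus WT, Casp1-/- minus WT and ASC-/- minus Casp1-/-; grey lines part the families, red marks an adjusted p under 0.05 and pale grey a mean signal under the background line. The ASC-/- differences run from -0.35 to 0.37, and the Casp1-/- differences from -1.07 (Col1a1) to 1.78 (Col4a4).

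Among the fibrillar collagens, the chains divided in Casp1-/- mice. Col1a1, Col1a2, Col3a1 and Col5a2 were fitted lower than in WT, and Col5a1 and Col5a3 higher, with only Col1a1 past the threshold. The family's median difference was -0.20, with 5 of 11 genes above 0 (all genes: 9790 of 17097). In ASC-/- mice it was -0.02, also with 5 of 11 above 0 (all genes: 8837 of 17097).

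Col1a1 encodes the chain present in 2 copies in type I collagen, the main protein of tendon, bone and the interstitial matrix. Its signal was 8.47, 9.39, 9.86 and 9.38 in the WT mice, 9.68, 9.65 and 9.61 in the ASC-/- mice and 8.21, 8.52 and 7.89 in the Casp1-/- mice. WT replicate 1 lay among the Casp1-/- arrays, so those groups overlapped, while the ASC-/- arrays all lay above the Casp1-/- arrays. Casp1-/- mice were lower than WT by a log2 difference of -1.07 (SE 0.28), a 2.10-fold lower signal, with an adjusted p of 0.0485 by limma. ASC-/- mice were 0.37 above WT, with a 95% interval from -0.26 to 1.00. The Casp1-/- call was sensitive to single arrays: it was kept when WT replicate 1 was left out (-1.34, adjusted p = 0.00465), and lost without any 1 of the other 9 arrays, where the adjusted p by limma was 0.0657 to 0.151. With the labelling control set as a block, which leaves WT replicate 1 as the only WT array of the Casp1-/- set, the difference was -0.26 (adjusted p = 0.772).

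Col3a1, the single chain of type III collagen, which forms fine fibres in distensible tissues, was 13.14, 13.27, 13.54 and 13.26 in WT, 13.44, 13.36 and 13.40 in ASC-/- and 12.96, 13.05 and 13.01 in Casp1-/- mice. The Casp1-/- arrays were the lowest 3 of the 10. Against WT the difference was -0.30 (SE 0.09, adjusted p = 0.0826), not past the threshold, and its second probe set gave -0.51.

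Col5a2, a chain of type V collagen, which sits inside type I fibrils and sets their diameter, showed the same order. The WT values were 11.22, 11.28, 11.85 and 11.40, the ASC-/- values 11.71, 11.67 and 11.62, and the Casp1-/- values 11.09, 11.10 and 11.11. Every Casp1-/- array lay under every other array, and the Casp1-/- SD of 0.01 was the smallest of the 19 genes above background in that group. Against WT the difference was -0.34 (SE 0.14, adjusted p = 0.148). Col3a1 and Col5a2 are neighbours on mouse chromosome 1, with no annotated protein-coding gene between them.

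Col1a2, the partner chain of Col1a1 in type I collagen, was read by a single probe set near the background line, at 5.29, 5.28, 5.68 and 4.89 in WT, 5.15, 4.90 and 4.997 in ASC-/- and 4.83, 4.91 and 4.62 in Casp1-/- mice. The Casp1-/- group overlapped WT through WT replicate 4. The difference from WT was -0.50 (SE 0.17, adjusted p = 0.0916), and the Casp1-/- mean of 4.79 lay under the line. Col27a1, a fibrillar collagen of the growth plate, was also fitted lower in Casp1-/- mice, with arrays from 4.96 to 5.40 against 5.30 to 6.02 in WT.

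The other type V chains went the other way. Col5a1, the chain that most type V molecules contain, was 10.66, 10.94, 10.64 and 10.43 in WT, 10.52, 10.87 and 10.86 in ASC-/- and 11.16, 11.05 and 10.97 in Casp1-/- mice. The Casp1-/- arrays were above all others, and the difference from WT was 0.39 (SE 0.13, adjusted p = 0.0955). Its 2 dimmer probe sets gave 0.18 and 0.08. Col5a3, a chain known from fat and muscle, was 10.36, 10.49, 9.90 and 9.92 in WT, 9.97, 10.34 and 10.32 in ASC-/- and 10.57, 10.47 and 10.51 in Casp1-/- mice, which overlapped WT through replicate 2 (0.35, SE 0.16, adjusted p = 0.199).

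**Figure D2:**
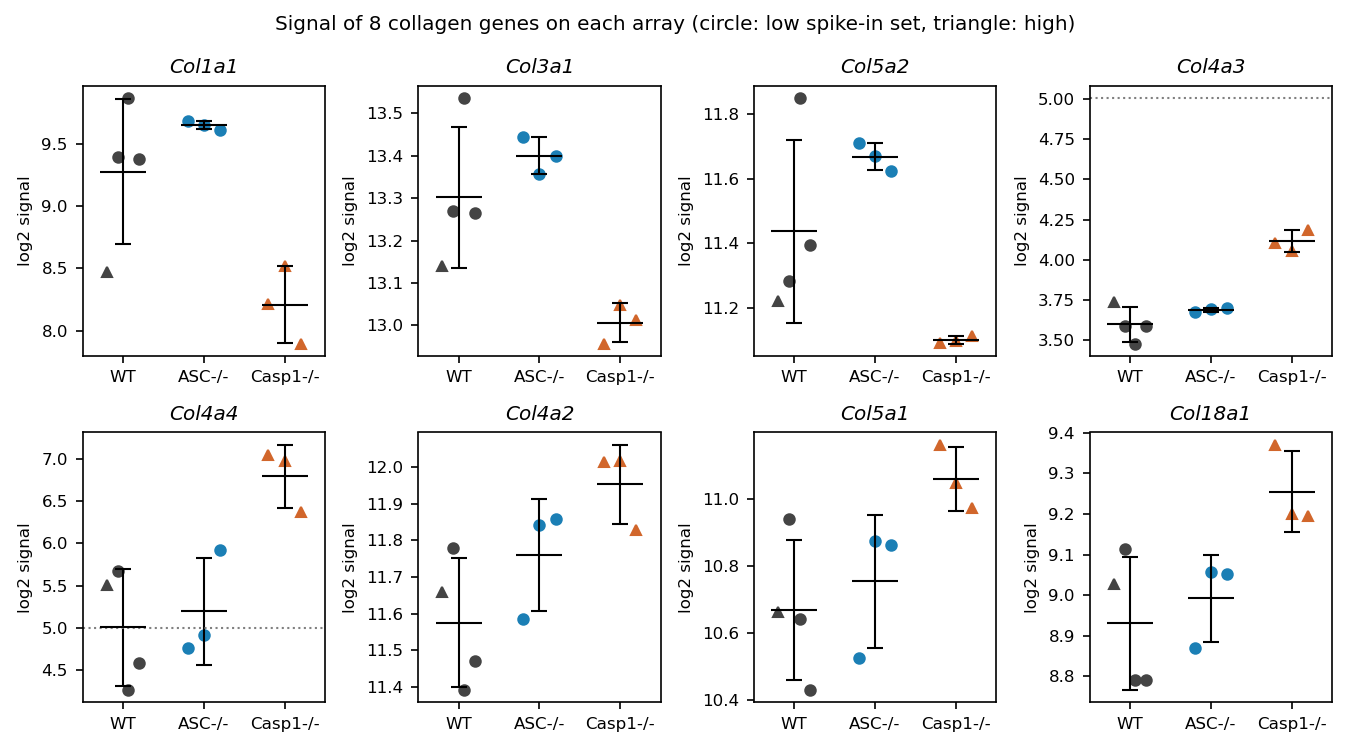
Log2 signal of 8 collagen genes on each array; points are arrays (circles: low labelling controls, triangles: high), bars the group mean and SD over 4 WT, 3 ASC-/- and 3 Casp1-/- arrays, and the dotted line the background line of 5.005. The Casp1-/- arrays of Col3a1 and Col5a2 sit under all others, those of Col4a2, Col4a3, Col4a4, Col5a1 and Col18a1 sit above all WT arrays, and WT replicate 1 of Col1a1 sits among the Casp1-/- arrays.

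The promoter of Col3a1 is shown because it differs in make-up from those of the type IV genes below. RefSeq windows from 250 bases before to 50 bases after the start site were at hand for 33 of the 42 genes (36 windows, GRCm38.p6), and Col1a1, Col5a2 and Col4a3 are not among them. Each was searched on both strands for CCAAT (the site of the factor NF-Y), GGGCGG (the core of an Sp1 site) and TATAAA (the TATA box). Capitals mark the matches, also where they read as the reverse complement. The Col3a1 window, chr1:45311288-45311587 on the plus strand, has a GC content of 37.7% and holds TATAAA but neither other motif.
Col3a1: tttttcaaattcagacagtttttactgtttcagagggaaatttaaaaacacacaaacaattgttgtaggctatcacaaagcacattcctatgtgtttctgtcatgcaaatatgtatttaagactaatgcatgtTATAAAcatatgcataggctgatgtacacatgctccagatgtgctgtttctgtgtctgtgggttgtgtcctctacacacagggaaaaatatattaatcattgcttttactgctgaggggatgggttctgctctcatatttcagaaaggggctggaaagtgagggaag
Over all 36 collagen windows, CCAAT was in 36.1%, GGGCGG in 61.1% and TATAAA in 13.9%, against 37.4%, 35.7% and 13.6% of all 32851 windows in the table. A match is a string of letters and not a measured site.

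The type IV collagens were fitted higher in Casp1-/- mice for 5 of 6 chains (all genes: 9790 of 17097). The family median was 0.33 (all genes: 0.04). Col4a3 and Col4a4 were past the threshold (all genes called higher: 4.31%), and their signals were near or under the background line in most mice. In ASC-/- mice the family's median was 0.14, with 4 of 6 chains above 0 (all genes: 8837 of 17097) and no call.

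Col4a1 and Col4a2 encode the chains of the network found in almost every basement membrane. Col4a1 was 12.45, 12.46, 12.14 and 12.09 in WT, 12.38, 12.52 and 12.60 in ASC-/- and 12.60, 12.64 and 12.43 in Casp1-/- mice, and the groups overlapped. The difference from WT was 0.27 (SE 0.12, adjusted p = 0.167) in Casp1-/- and 0.22 (SE 0.12) in ASC-/- mice. The second Col4a1 probe set, with a mean of 10.79, gave 0.08 in Casp1-/- and 0.26 in ASC-/- mice. Its unadjusted p by limma in ASC-/- mice was 0.0189, and it did not pass the threshold when all probe sets were tested. Col4a2 was 11.66, 11.78, 11.39 and 11.47 in WT, 11.58, 11.84 and 11.86 in ASC-/- and 12.01, 12.02 and 11.83 in Casp1-/- mice. All Casp1-/- arrays of Col4a2 lay above all WT arrays, and the difference was 0.38 (SE 0.12, adjusted p = 0.0734).

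The genes of these chains stand head to head on chromosome 8, and their promoters are shown because they share DNA. The annotated start sites are 21 bases apart on opposite strands, and the windows overlap by 78 bases. The Col4a1 window is chr8:11312777-11313076 on the minus strand, and the Col4a2 window is chr8:11312555-11312854 on the plus strand. Their GC contents are 74.0% and 73.7%. Both hold CCAAT and GGGCGG, or the reverse complements ATTGG and CCGCCC, and neither holds TATAAA.
Col4a1: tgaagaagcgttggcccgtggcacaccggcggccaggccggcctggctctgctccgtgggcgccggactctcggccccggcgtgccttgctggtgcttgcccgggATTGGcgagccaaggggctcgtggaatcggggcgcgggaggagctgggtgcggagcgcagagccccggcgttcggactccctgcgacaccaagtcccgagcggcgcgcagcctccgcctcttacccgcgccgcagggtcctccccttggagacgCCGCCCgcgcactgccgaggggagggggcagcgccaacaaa
Col4a2: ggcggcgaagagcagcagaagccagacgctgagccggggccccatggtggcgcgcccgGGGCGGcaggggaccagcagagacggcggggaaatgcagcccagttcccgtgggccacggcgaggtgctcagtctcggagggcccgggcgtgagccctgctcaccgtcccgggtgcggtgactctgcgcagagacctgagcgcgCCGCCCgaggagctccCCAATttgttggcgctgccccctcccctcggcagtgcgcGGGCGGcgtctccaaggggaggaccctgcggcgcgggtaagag
The GGGCGG in capitals near the end of the Col4a2 line and the CCGCCC in capitals near the end of the Col4a1 line lie in the shared stretch.

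Col4a3 and Col4a4 encode chains of the α3α4α5 network, known from the kidney glomerulus, and are also neighbours, on chromosome 1 with no annotated protein-coding gene between them. Col4a4 was 5.51, 5.67, 4.27 and 4.59 in WT, 4.76, 4.91 and 5.92 in ASC-/- and 7.04, 6.97 and 6.37 in Casp1-/- mice. WT replicates 3 and 4 and ASC-/- replicates 1 and 2 lay under the background line, while all Casp1-/- arrays lay above every other array. The difference from WT was 1.78 (SE 0.40, adjusted p = 0.0300 by limma), with the WT mean of 5.01 at the background line, and the second probe set, with a mean of 3.47, gave 0.45. The limma call was lost without WT replicate 4 (1.64, adjusted p = 0.0781) and without Casp1-/- replicate 1, 2 or 3 (1.66, 1.70 and 2.00, adjusted p = 0.102, 0.109 and 0.0682). With the labelling control set as a block it was 1.29 (adjusted p = 0.432).

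Col4a3 was 3.74, 3.58, 3.48 and 3.59 in WT, 3.67, 3.69 and 3.70 in ASC-/- and 4.10, 4.06 and 4.19 in Casp1-/- mice. All 10 values were under the background line, although the Casp1-/- arrays were above the rest. The signal difference from WT was 0.52 (SE 0.08, adjusted p = 0.0111 by limma), and its second probe set gave 0.23. The call was lost without Casp1-/- replicate 2 (0.55, adjusted p = 0.0509) and with the labelling control set as a block (0.38, adjusted p = 0.167).

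The Col4a4 window, chr1:82586800-82587099 on the minus strand, is printed because Col4a4 passed the threshold against WT and has a window in the table. It has a GC content of 63.3% and holds none of the 3 motifs, on either strand.
Col4a4: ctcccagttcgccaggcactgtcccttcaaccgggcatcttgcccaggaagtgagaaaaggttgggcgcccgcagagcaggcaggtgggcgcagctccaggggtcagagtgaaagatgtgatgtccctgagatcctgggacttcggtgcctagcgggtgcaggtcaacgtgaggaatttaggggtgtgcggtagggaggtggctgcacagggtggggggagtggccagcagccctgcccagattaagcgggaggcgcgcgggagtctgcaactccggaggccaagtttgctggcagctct

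Col4a5 and Col4a6, the X-linked chains, varied between mice rather than between genotypes. Col4a5 was 8.69, 8.25, 8.07 and 8.15 in WT, 8.12, 8.05 and 8.28 in ASC-/- and 7.95, 8.94 and 7.96 in Casp1-/- mice. Col4a6 was 5.41, 4.48, 3.81 and 3.99 in WT, 4.03, 4.296 and 4.21 in ASC-/- and 4.32, 5.19 and 3.93 in Casp1-/- mice. For both genes the highest 2 arrays were WT replicate 1 and Casp1-/- replicate 2. Their start sites are 1343 bases apart on opposite strands of the X chromosome. WT replicate 1 is the array with the highest smooth muscle mean. On Casp1-/- replicate 2, 2 of 8 epididymis markers stood above the background line (Adam7 at 8.31 and Crisp4 at 6.35), and its mesothelium mean of 8.06 was the highest of the 10. Their part in these values was not tested.

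The type VI chains showed no call in any comparison. The 3 chains above background form the usual type VI molecule, which is abundant around adipocytes. Col6a1 was 11.20, 11.59, 11.26 and 11.02 in WT, 11.35, 11.73 and 11.58 in ASC-/- and 11.61, 11.41 and 11.40 in Casp1-/- mice. Its neighbour Col6a2 on chromosome 10 ranged from 11.54 to 12.11 in WT, 11.87 to 12.16 in ASC-/- and 11.81 to 12.11 in Casp1-/- mice. The Casp1-/- differences from WT were 0.21 (SE 0.14) for Col6a1 and 0.19 (SE 0.14) for Col6a2, and the groups overlapped for both.

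Col6a3, the long chain of type VI whose C-terminal piece is released as endotrophin, was 11.81, 11.63, 12.10 and 11.67 in WT, 11.96, 11.89 and 11.82 in ASC-/- and 11.38, 11.44 and 11.69 in Casp1-/- mice. Casp1-/- replicate 3 overlapped WT, and the difference was -0.30 (SE 0.13, adjusted p = 0.163). Col6a5, an alternative chain, was under the background line in all group means. Its Casp1-/- arrays, from 3.45 to 3.94, lay under the WT arrays, from 3.99 to 5.10 (-0.68, SE 0.25, adjusted p = 0.112). Col6a4, another alternative chain, lay between 3.40 and 3.76 on all 10 arrays.

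The multiplexins, collagens XV and XVIII, are proteoglycans of basement membranes, and a C-terminal piece of collagen XVIII is endostatin. Col15a1 was 8.63, 9.08, 8.45 and 8.12 in WT, 8.55, 8.79 and 8.82 in ASC-/- and 9.06, 8.93 and 8.96 in Casp1-/- mice. WT replicate 2 was above every Casp1-/- array, and the difference was 0.41 (SE 0.19, adjusted p = 0.196). Col18a1 was 9.03, 9.11, 8.79 and 8.79 in WT, 8.87, 9.06 and 9.05 in ASC-/- and 9.37, 9.20 and 9.20 in Casp1-/- mice. The Casp1-/- arrays were above all others, with a difference of 0.32 (SE 0.10, adjusted p = 0.0850). Its second probe set, with a mean of 8.55, passed the threshold when all probe sets were tested (0.41, SE 0.08, adjusted p = 0.0200).

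Of the 18 other collagens, none passed the threshold in any comparison, and 3 were above background. Col14a1, which decorates fibril surfaces, ranged from 8.46 to 9.12 in WT, 8.66 to 8.87 in ASC-/- and 8.64 to 8.98 in Casp1-/- mice. Col16a1, another fibril-associated collagen, ranged from 6.996 to 7.84, from 7.47 to 7.75 and from 7.27 to 7.79. Col8a1, a short-chain network collagen of vessel walls, was 7.70, 8.45, 9.16 and 8.43 in WT, 8.97, 8.64 and 8.40 in ASC-/- and 7.44, 8.34 and 7.92 in Casp1-/- mice. Its difference from WT of -0.53 (SE 0.32) had an interval from -1.26 to 0.19.

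Among the dim genes, Col23a1, a transmembrane collagen, was 5.45, 5.05, 3.98 and 3.85 in WT, 4.64, 4.28 and 4.89 in ASC-/- and 6.10, 5.98 and 5.18 in Casp1-/- mice. Casp1-/- and WT overlapped (1.17, SE 0.40, adjusted p = 0.101), and its other 2 probe sets gave 0.21 and -0.44. Col12a1 and Col24a1 stayed under the line, with values from 3.03 to 3.26 and from 2.95 to 3.52 over the 10 arrays. The same held for Col10a1 (3.13 to 3.41), Col17a1 (3.07 to 3.52), Col26a1 (3.41 to 3.86) and Col7a1 (3.84 to 4.39).

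The comparison of ASC-/- with Casp1-/- mice shares its Casp1-/- arrays with the comparison against WT. Here 4 of 42 collagen genes (9.52%) passed the threshold, against 7.39% of all genes, 3 of them higher in ASC-/- (all genes: 3.85%) and 1 lower (all genes: 3.54%). An unadjusted p under 0.05 was found for 12 (28.6%), against 26% of all genes. Groups did not overlap for 18 collagen genes (42.9%), against 40.4% of all genes, with 7 higher in ASC-/- (all genes: 17.3%) and 11 lower (all genes: 23.1%), and the median difference was -0.05, against -0.04 for all genes. These shares were again near those of all genes.

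The called genes were Col1a1, Col3a1 and Col5a2, all higher in ASC-/-, and Col4a3, lower. By limma Col1a1 was 1.44 higher (SE 0.30, adjusted p = 0.0259), or 2.71-fold. Col5a2 was 0.57 higher (SE 0.14, adjusted p = 0.0468) and Col3a1 0.39 higher (SE 0.10, adjusted p = 0.0472). Col4a3, within background in both groups, differed by -0.43 (SE 0.08, adjusted p = 0.0218). Col4a4 was lower in ASC-/- mice by more (-1.59, SE 0.42) but did not pass (adjusted p = 0.0525). Of the 6 type IV chains, all 6 were fitted lower in ASC-/- than in Casp1-/- mice, with a median of -0.25 (all genes: 9805 of 17097 lower). The second Col4a1 probe set went the other way, at 0.18. Of the 5 type VI chains all 5 were fitted higher, with a median of 0.08 (all genes: 7292 of 17097 higher).

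These calls were lost when any ASC-/- or Casp1-/- array was left out. The adjusted p by limma then ran from 0.0596 to 0.100 for Col1a1, 0.104 to 0.163 for Col3a1, 0.0937 to 0.156 for Col5a2 and 0.0522 to 0.0935 for Col4a3. Col3a1 and Col5a2 also lost theirs without WT replicate 2 (0.0642 and 0.0563) and without WT replicate 4 (0.0698 and 0.0692). With the labelling control set as a block the differences were 0.37, 0.18, 0.28 and -0.24, with adjusted p of 0.831, 0.841, 0.830 and 0.667. All ASC-/- arrays are in the low set of labelling controls and all Casp1-/- arrays in the high set. The size of this adjustment thus rests on WT replicate 1 against the other WT arrays alone. The actin 3' minus 5' signal, a sign of RNA quality, also set these groups apart, at 0.54 to 0.67 on the ASC-/- and 0.82 to 0.98 on the Casp1-/- arrays (WT: 0.46 to 1.05). With it as a covariate all 4 calls were lost: Col1a1 was 1.03 higher (adjusted p = 0.113), Col3a1 0.29 (0.228), Col5a2 0.39 (0.227) and Col4a3 -0.36 (0.0974). Col4a4, not called before, went from -1.59 to -0.93.

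The spread between arrays was widest in WT, the only group with arrays in both labelling control sets, and its source was not tested. Over the 19 genes above background the median SD was 0.28 in WT, 0.13 in ASC-/- and 0.15 in Casp1-/- mice, against 0.22, 0.11 and 0.11 for all genes above background. WT replicate 3 was often at the end of the range: it was the highest of all 10 arrays for 8 of the 19 genes. Of the 8 genes fitted lower in Casp1-/- mice, WT replicate 3 was the highest WT array for 7, among them Col1a1, Col3a1 and Col5a2. Of the 11 fitted higher it was the highest WT array for 1 (Col14a1) and the lowest for 3 (Col4a2, Col4a4 and Col5a3). WT replicate 3 is part of the WT mean that sets these signs, so such a split arises in part by construction. WT replicate 4 was the lowest of all 10 arrays for 8 genes.

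**Figure D3:**
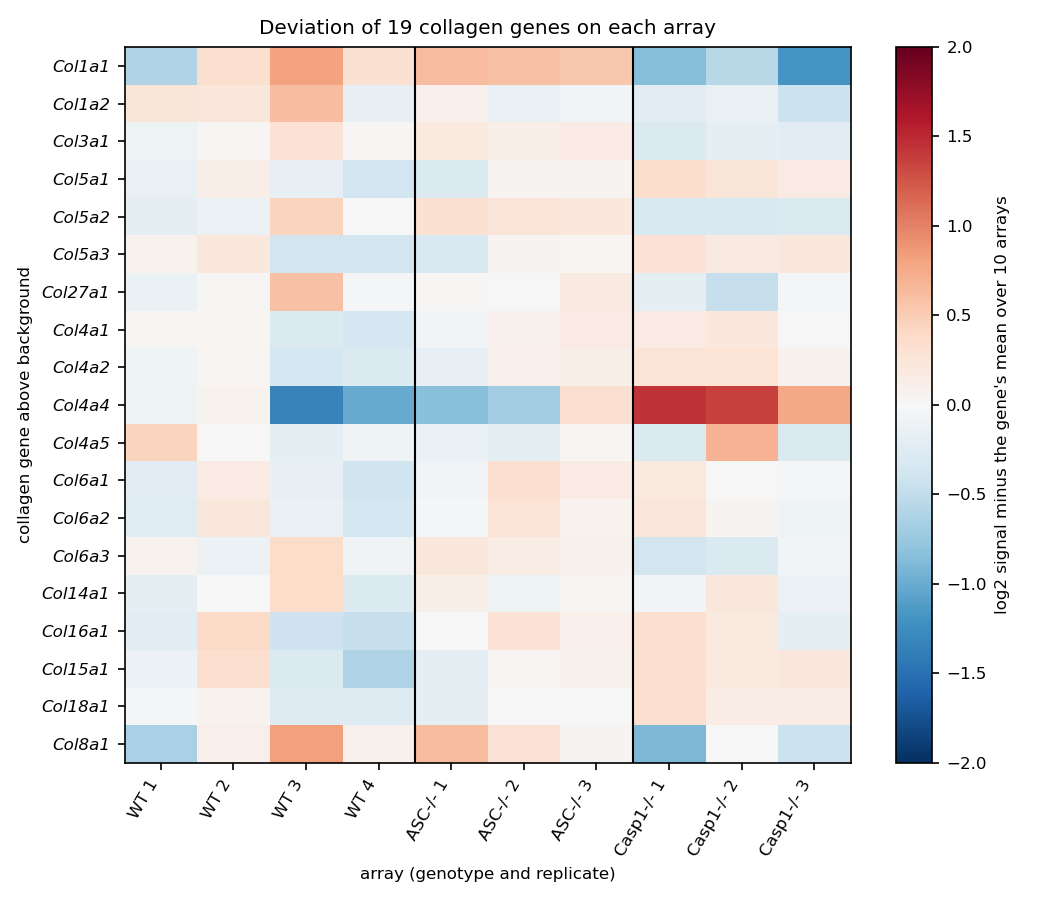
Log2 signal of each of the 19 collagen genes above background minus its mean over the 10 arrays (red higher, blue lower), with genes in rows by family and arrays in columns by genotype. WT replicate 3 is high for 8 genes, among them Col1a1, while the Casp1-/- arrays are low for Col1a1, Col3a1 and Col5a2 and high for Col4a4.

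The cell types that make collagen, and macrophages, which take up and degrade it, were followed by their markers, since in a whole tissue fewer cells of a type and less RNA per cell cannot be told apart. Fibroblast and progenitor markers had array means of 7.76 to 8.34 in WT, 7.93 to 8.04 in ASC-/- and 7.82 to 7.96 in Casp1-/- mice, and 0 of 9 passed the threshold in any comparison. Macrophage markers averaged 9.59 to 11.004 in WT, 10.21 to 10.59 in ASC-/- and 9.01 to 9.15 in Casp1-/- mice. All 12 were fitted lower in Casp1-/- than in WT (median -1.24). Of these, 10 lay under all WT arrays (all genes: 9.6%) and 7 were called lower (all genes: 3.86%). The highest macrophage mean was on WT replicate 3, the array on which Col1a1, Col3a1 and Col5a2 were highest. The lowest WT mean was on WT replicate 1, where these genes were lowest in WT. The fibroblast and progenitor mean followed the same arrays, highest of all on WT replicate 3 (8.34) and lowest of all on WT replicate 1 (7.76). Endothelial markers averaged 7.80 to 8.26 in WT, 7.96 to 8.40 in ASC-/- and 8.12 to 8.88 in Casp1-/- mice. Of these, 9 of 10 were fitted higher in Casp1-/- than in WT (median 0.50) and 0 passed the threshold. Over all 17097 genes, 9790 were fitted higher in Casp1-/- than in WT and 7307 lower. Adipocyte markers averaged 10.86 to 11.53 in WT, 11.17 to 11.41 in ASC-/- and 11.52 to 11.61 in Casp1-/- mice. In Casp1-/- mice 5 of 8 lay above all WT arrays (all genes: 15.1%) and 1 was called higher (all genes: 4.31%), with a median of 0.26. Pericyte and smooth muscle markers had a median difference of -0.16 in Casp1-/- mice, with 0 of 6 past the threshold. Mesothelium markers averaged 6.32 to 7.19 in WT, 6.31 to 6.94 in ASC-/- and 6.66 to 8.06 in Casp1-/- mice, with 7 of 8 fitted higher in Casp1-/- (median 0.75) and 0 past the threshold. Their part in the collagen differences was not tested.

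**Figure D4:**
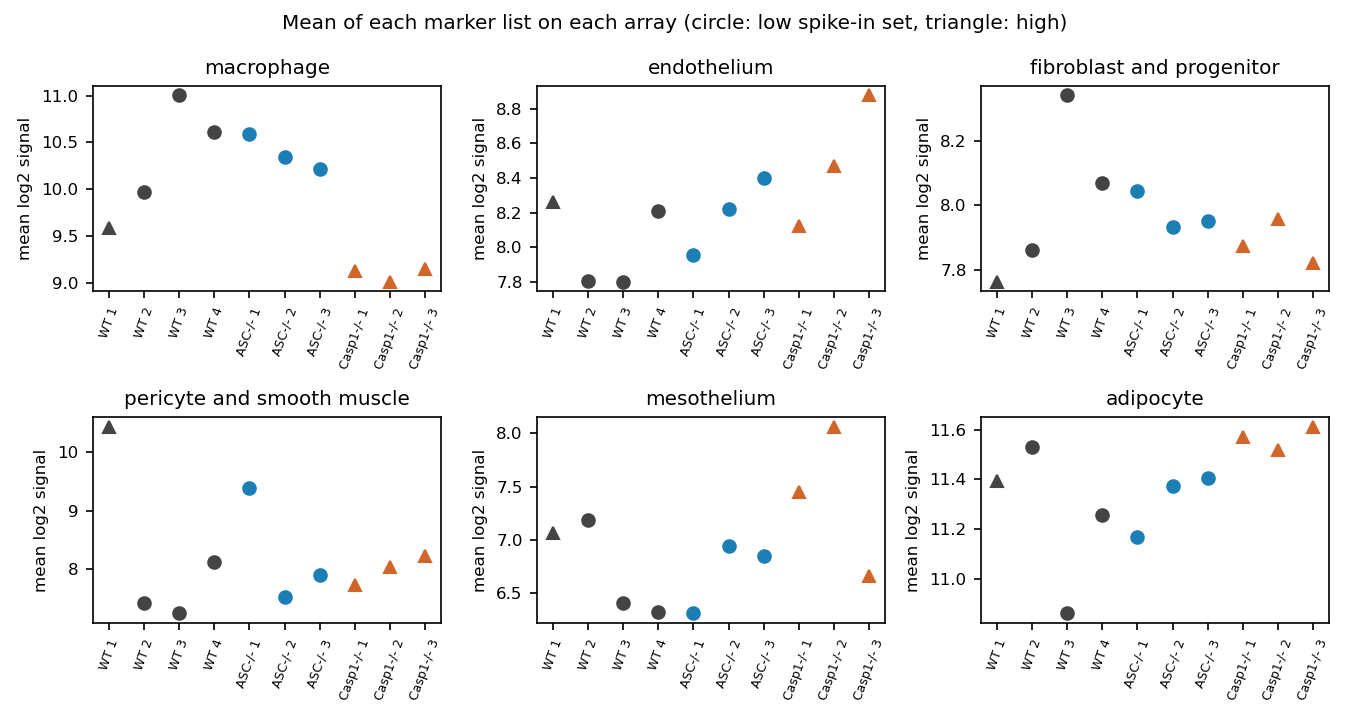
Mean log2 signal of 6 lists of cell type markers on each array (circles: low labelling controls, triangles: high; black WT, blue ASC-/-, orange Casp1-/-). The Casp1-/- arrays have the lowest macrophage means, 9.01 to 9.15, and WT replicate 3 has the highest, 11.004. The fibroblast and progenitor means lie between 7.76 on WT replicate 1 and 8.34 on WT replicate 3.

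Genes that fold, assemble, bind and break down collagen were read from the same fit, in lists of their own. In ASC-/- mice none of the 17 measured genes for folding and modification in the endoplasmic reticulum, 18 for assembly and crosslinking, 11 receptors, 10 for degradation or 8 inducers passed the threshold against WT. In Casp1-/- mice 2 folding and modification genes, 0 assembly and crosslinking genes, 1 receptor, 3 degradation genes and 3 inducers passed, where 8.17% of all genes did.

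In the folding and modification list, Plod2 fell and P4ha2 rose in Casp1-/- mice. Plod2 hydroxylates the telopeptide lysines that later become stable crosslinks. It was 7.54, 7.72, 8.15 and 7.37 in WT, 7.76, 7.65 and 7.90 in ASC-/- and 6.79, 6.83 and 6.82 in Casp1-/- mice, with no overlap (-0.88, SE 0.16, adjusted p = 0.0189 by limma). P4ha2, a catalytic subunit of the prolyl hydroxylase that stabilises the triple helix, was 7.94, 7.90, 7.44 and 7.61 in WT, 7.49, 7.81 and 7.95 in ASC-/- and 8.495, 8.48 and 8.29 in Casp1-/- mice (0.70, SE 0.15, adjusted p = 0.0265). Serpinh1, the collagen chaperone HSP47, was 11.94 to 12.18 in WT and 12.21 to 12.35 in Casp1-/- mice (0.20, SE 0.09, adjusted p = 0.191). P4ha1 was not analysed here. Against Casp1-/- mice, ASC-/- mice were past the threshold in 3 of the 17 genes of this list (17.6%; all genes: 7.39%), higher in Plod2 (0.96) and Colgalt1 (0.85), a collagen galactosyltransferase, and lower in P4ha2 (-0.67).

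Lox, the lysyl oxidase that starts crosslinking, was 9.83 to 10.05 in Casp1-/- mice and 10.11 to 10.53 in WT (-0.43, SE 0.13, adjusted p = 0.0723). Lum, the fibril-binding proteoglycan lumican, was 10.89 to 11.04 against 11.42 to 12.40 (-0.85, SE 0.24, adjusted p = 0.0589). Neither passed the threshold, and the median of the assembly list was -0.16 in Casp1-/- mice. Among the receptors, Lair1, an inhibitory collagen receptor of leukocytes, fell by 2.23 (SE 0.50, adjusted p = 0.0308), and Ddr2, a collagen receptor of fibroblasts, differed by 0.01 with an interval from -0.18 to 0.20.

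In the degradation list the median Casp1-/- difference was -0.76. Ctsk, which encodes cathepsin K, an enzyme that cuts the collagen helix and is best known from osteoclasts, was 10.47, 10.91, 12.19 and 11.72 in WT, 12.12, 11.56 and 11.40 in ASC-/- and 9.61, 9.26 and 9.50 in Casp1-/- mice. The Casp1-/- arrays lay under all others (-1.86, SE 0.37, adjusted p = 0.0223 by limma). Timp1, an inhibitor of metalloproteinases, fell by 1.54 (SE 0.32, adjusted p = 0.0255). Mmp14, a membrane-bound collagenase, was 9.55, 10.01, 10.86 and 10.19 in WT, 10.61, 10.21 and 10.15 in ASC-/- and 9.21, 8.99 and 8.79 in Casp1-/- mice (-1.15, SE 0.27, adjusted p = 0.0343). These 3 genes were also past the threshold in ASC-/- against Casp1-/- mice, higher by 2.24, 1.67 and 1.33 (3 of 10, where 7.39% of all genes passed), as were Lair1 (2.46; 1 of 11 receptors) and Tgfb1 (1.82; 1 of 8 inducers). The arrays low in these genes are those with the low macrophage means given above.

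Among the inducers, Tgfb1 fell and Tgfb3 and Smad3 rose in Casp1-/- mice. Tgfb1, the best known inducer of collagen genes, was 5.28, 6.61, 7.21 and 6.67 in WT, 7.22, 6.65 and 6.44 in ASC-/- and 4.98, 5.05 and 4.82 in Casp1-/- mice (-1.49, SE 0.39, adjusted p = 0.0468 by limma). WT replicate 1 lay near the Casp1-/- arrays, and with the labelling control set as a block the difference was -0.33 (adjusted p = 0.766). Tgfb3 was 0.78 higher (SE 0.16, adjusted p = 0.0253), and Smad3, which carries the signal of these ligands to the nucleus, was 0.35 higher (SE 0.09, adjusted p = 0.0398).

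All 9 Casp1-/- calls against WT in these lists, those of Plod2, P4ha2, Lair1, Ctsk, Timp1, Mmp14, Tgfb1, Tgfb3 and Smad3, were lost when Casp1-/- replicate 1, 2 or 3 was left out, with adjusted p by limma from 0.0532 to 0.134. Without WT replicate 4, 7 of the 9 were lost (0.062 to 0.110), with Plod2 and Timp1 keeping theirs. Tgfb1 and Smad3 also lost theirs without WT replicate 2 (0.0752 and 0.0617), without WT replicate 3 (0.0811 and 0.0663) and without ASC-/- replicate 2 or 3. Mmp14 lost its call without ASC-/- replicate 2 or 3 (0.0573 and 0.0507), Lair1 without ASC-/- replicate 2 (0.0535) and Tgfb1 without ASC-/- replicate 1 (0.0548). With the labelling control set as a block none was kept, with adjusted p from 0.119 for Tgfb3 to 0.766 for Tgfb1. The 8 calls of ASC-/- against Casp1-/- mice in these lists were lost without ASC-/- replicate 1 or 2 or Casp1-/- replicate 2 or 3 (0.053 to 0.138). With the labelling control set as a block all 8 were lost too, with adjusted p from 0.495 for Plod2 to 0.921 for Tgfb1. Their differences were then 0.76 for Plod2, -0.38 for P4ha2, 0.20 for Colgalt1, 0.84 for Lair1, 1.10 for Ctsk, 1.06 for Timp1, 0.53 for Mmp14 and 0.27 for Tgfb1. Here too the size of the adjustment rests on WT replicate 1 against the other WT arrays alone. With the actin 3' minus 5' signal as a covariate Ctsk alone of the 8 was kept (1.59, adjusted p = 0.0457).

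**Figure D5:**
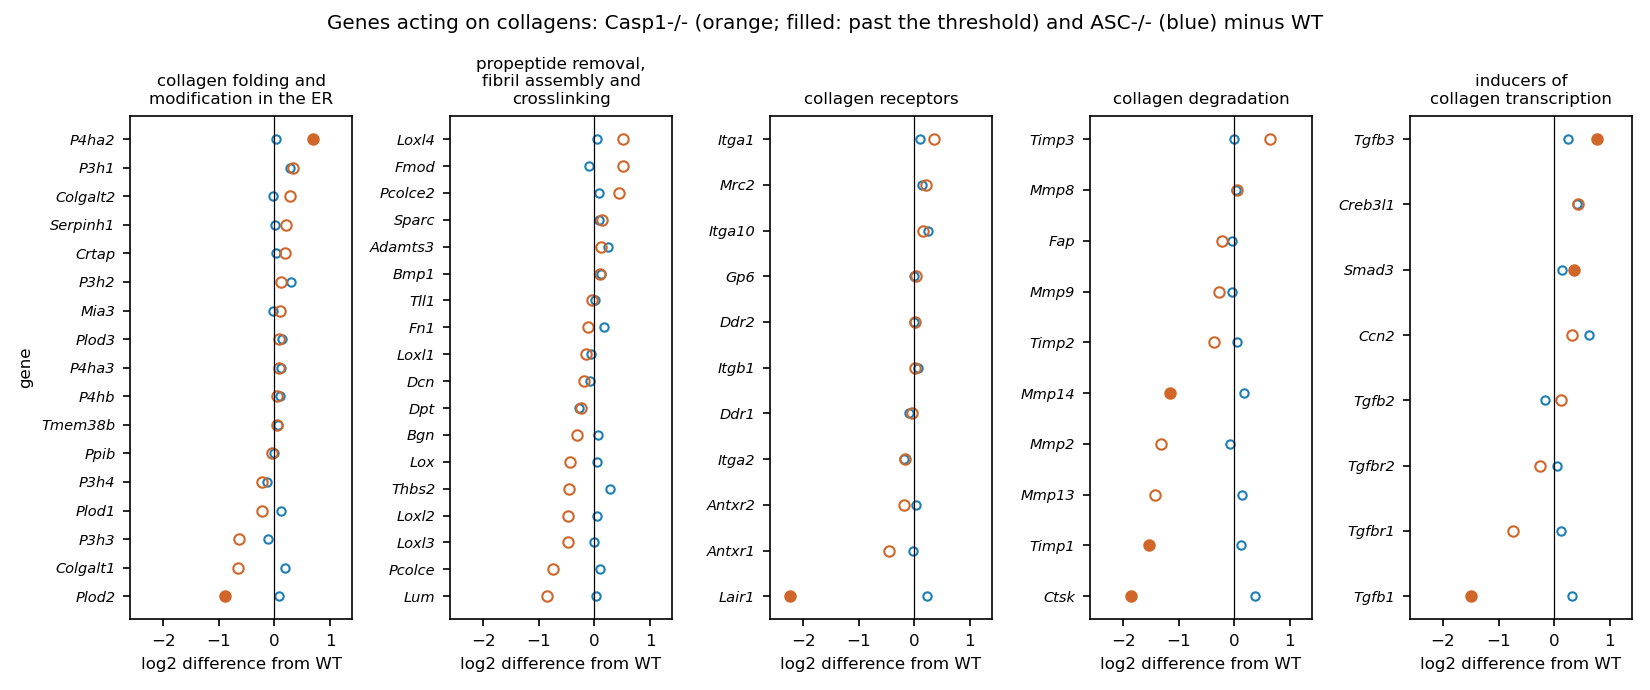
Fitted log2 difference from WT of the genes that act on collagens, in 5 lists, for Casp1-/- (orange, filled where the adjusted p is under 0.05) and ASC-/- (blue). Casp1-/- differences run down to -2.23 for Lair1 and -1.86 for Ctsk and up to 0.78 for Tgfb3, while no ASC-/- difference passed the threshold.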

How the data were processed

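RNA of each mouse was reverse transcribed from an oligo-dT primer, made into biotin-labelled cRNA and put on an Affymetrix HT_MG-430 PM array, per the labels' protocols. The values that the authors deposited are log2 signals from RMA, named without a version in the submitters' processing notes. The genome build of the probe sets was not stated there. RMA forces 1 distribution onto all arrays, so that a change in total RNA cannot be seen and low signals are compressed. Array medians lay between 4.292 and 4.362, and the number of arrays limits the precision.

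Of 45141 probe sets in the table, 104 are controls, 28898 have 1 gene symbol, 551 several and 15588 none in the annotation used. A model with a mean for each genotype was fitted to all 10 arrays and 17097 genes (limma 3.58.1, R 4.3.3; 7 residual and 2.43 prior degrees of freedom), with two-sided tests and Benjamini-Hochberg adjustment over all genes. On data simulated for Casp1-/- against WT with 17097 genes, 79 of 100 genes changed by 1 and 97 of 100 changed by 2 were recovered, and 15 of 16897 unchanged genes were called. The simulated noise was independent, with the same spread in every group and no labelling control set. On the real arrays the median SD of genes above background was 0.22 in WT and 0.11 in Casp1-/- mice, so these rates need not hold there. RefSeq tables of GRCm38.p6 gave promoters and neighbouring genes. Named genes were a fixed set of common collagens, every collagen past the threshold, the 3 largest non-overlapping differences per comparison, the ends of each family by mean signal, genes whose probe sets disagree, and up to 6 called members of each partner list with 7 fixed ones. The members and lists were chosen with earlier results of these data known. Alternatives covered normalization, probe set choice, filters, the model and each array left out.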

Additional observations from a re-analysis of the deposited data

How the results depend on the processing

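The count of collagen genes past the threshold was 0 for ASC-/- against WT under every alternative run, where 3 to 6 of all genes passed. For Casp1-/- against WT it was 3, with 1397 calls over all genes. It moved to 9 with array weights (all genes: 2998) and 1 when only the 2 groups compared were fitted (469). With the spike-in set (the labelling control set) as a block it was 0 (120). For ASC-/- against Casp1-/- it was 4, with 1264 calls over all genes. It moved to 2 with the mean over probe sets (all genes: 1134) or with all probe sets tested (1189). Array weights or only the 2 groups gave 8 (3428 and 3248). The spike-in set as a block (63) or the actin 3' minus 5' signal as a covariate (231) gave 0. Leaving out 1 array at a time gave 0 to 7 and 0 to 6 genes. Calls over all genes then ran from 64 to 3018 and from 47 to 2615. Quantile normalization, median centring, a filter on dim genes and a trended, robust empirical Bayes step kept both counts within 1.5 times. Only the empirical Bayes step kept the same genes. Col1a1 lost its Casp1-/- call against WT with quantile normalization and with centring, and the filter removed Col4a3. For ASC-/- against Casp1-/-, quantile normalization, centring and the filter each added Col4a4. Quantile normalization lost Col3a1 there, centring lost Col3a1 and Col5a2, and the filter removed Col4a3. Of 3 alternatives chosen after seeing the data, leaving out the 2 arrays high in smooth muscle markers gave 7 and 2 genes (all genes: 2751 and 723). The high spike-in arrays alone hold WT replicate 1 as their only WT array, so that fit has no spread between WT mice. Its Casp1-/- differences from WT were -0.26 for Col1a1, 0.38 for Col4a3 and 1.29 for Col4a4. Replicate numbers are shared across genotypes, and deviations of same-numbered arrays from their group means correlated from -0.26 to 0.19. Differently numbered arrays were not compared, so these values cannot show whether a shared number links mice. With the replicate number as a block, the counts were 0 for each comparison, and the calls over all genes fell to 9 for Casp1-/- against WT and 19 for ASC-/- against Casp1-/-. Of the alternatives that gave a value, Col1a1 kept its Casp1-/- call against WT under 5 of 23, Col4a3 under 18 of 22 and Col4a4 under 15 of 23. Against Casp1-/- mice, the ASC-/- calls were kept under 13 of 22 for Col1a1, 6 of 22 for Col3a1, 8 of 22 for Col5a2 and 11 of 21 for Col4a3, each in the same direction throughout. The only change of sign among the named differences was Col23a1 in ASC-/- against Casp1-/-, at -1.15 and at 0.011 with the spike-in set as a block. The cause of these changes was not tested. Precision was limited by 3 or 4 mice a group, and 23 of the 42 collagen genes had a mean signal under the background line.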
